A study of Mus musculus with 2 samples.

Results

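NF-kB subunits, their inhibitors and the kinase NIK were followed in regulatory T cells with and without Hopx. They were taken as every probe set whose platform annotation gives the symbol of 1 of 10 listed genes, and 18 of the 34945 probe sets with 1 gene symbol met this rule. These 18 measured 9 genes of the 18193 on the array: Nfkb2, Rel, Rela, Relb, Nfkbia, Nfkbid, Nfkbiz, Tnfaip3 and Map3k14. Nfkb1, the remaining listed gene, was not analysed here.

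The 2 groups were Hopx-/- cells, called Hopx-deficient below, and Hopx-sufficient cells, with 1 array each. Both were mouse regulatory T cells formed in vivo through dendritic cells, taken ex vivo after immunization and sorted for CD25 and Foxp3. Hopx is a small homeodomain-only cofactor that does not bind DNA itself. The strain, age and number of mice behind each array, the immunogen and the deleted part of Hopx are not given in the sources used here.

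All differences are log2 values, Hopx-deficient minus Hopx-sufficient, centred on the median of the probe sets with 1 symbol, and the value of a gene is the mean over its probe sets. Each genotype had 1 array, so the differences carry no error between replicates, no test was made, and each value describes these 2 arrays. The available yardsticks are technical. The standard deviation between probe sets of the same gene was 0.18, over 9010 genes with more than 1 probe set. The 18 hybridization spike-in probe sets lay between -0.22 and 0.01, with a median of -0.12. Their range thus lay almost wholly below 0. Each probe set was deposited centred on the mean of the 2 arrays. Its 2 deposited values, given below for each gene, are therefore mirror images. They restate the difference before the median was subtracted and are not separate levels. The deposited values hold no signal level, and the steps between them give at most a coarse bound for some probe sets. The markers of regulatory T cells could thus not be checked for presence. Hopx itself was lower in Hopx-deficient cells, by -4.87 and -5.44 in its probe sets, which is the direction the labels require.

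NF-kB is a family of dimeric transcription factors. RelA, c-Rel and RelB carry activation domains, and the products of Nfkb1 and Nfkb2 are made as long precursors that are shortened to p50 and p52. In the canonical route the antigen receptor, CD28 or TNF receptors activate the IKK kinases, which mark IkB-alpha (Nfkbia) for destruction and so release RelA and c-Rel dimers into the nucleus. In the non-canonical route the kinase NIK (Map3k14), which is otherwise kept low by TRAF and cIAP proteins, drives the shortening of the Nfkb2 product and frees p52 with RelB. In T cells c-Rel is known for its part in the formation of regulatory T cells and in the transcription of Foxp3.

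Several of these genes are themselves NF-kB targets, and the letters of the kB motif near their starts are shown for that reason. The bases before the annotated starts were read from the RefSeq promoter table (GRCm38.p6), which held 12 windows for 7 of the genes: Nfkb2, Rel, Rela, Nfkbia, Nfkbid, Tnfaip3 and Map3k14. The letters searched were GGG and TTCC with any 3 bases between them, on both strands, in the 250 bases before each start. They were found in 8 of the 12 windows and in 5 of the 7 genes, against 4.65% of all 32851 windows and 5.31% of all 27025 genes in the table. Nfkb2, Rel, Nfkbia, Nfkbid and Tnfaip3 held them. These letters are not in the windows of Rela and Map3k14. The spelling was picked after others had been looked at: the looser GGG and CC with any 5 bases between them, which takes in every such match, was in all 12 windows, against 45.8% of all windows, and the stricter GGGA and TTCC with any 2 bases between them in 3 of the 12, against 1.21%. A match is a run of letters and not a measured binding site.
Each stretch below runs 5′ to 3′ on the strand of its gene, with matches to GGG, any 3 bases, TTCC or to its reverse complement in capitals.
Rel: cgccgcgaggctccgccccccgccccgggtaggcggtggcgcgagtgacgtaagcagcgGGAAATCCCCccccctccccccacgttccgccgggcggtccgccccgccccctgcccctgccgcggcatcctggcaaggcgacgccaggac
Nfkb2: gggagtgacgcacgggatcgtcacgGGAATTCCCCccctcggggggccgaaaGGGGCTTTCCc
Nfkbid: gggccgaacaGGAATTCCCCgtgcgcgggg
Nfkbia: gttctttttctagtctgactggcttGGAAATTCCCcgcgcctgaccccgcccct
Tnfaip3: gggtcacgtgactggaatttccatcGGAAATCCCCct
Map3k14: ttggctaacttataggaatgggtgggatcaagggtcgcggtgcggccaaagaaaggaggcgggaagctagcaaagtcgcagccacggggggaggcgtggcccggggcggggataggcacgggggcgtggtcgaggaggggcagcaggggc
The stretch of Rel is chr11:23770970-23771119 on the minus strand and that of Map3k14 is chr11:103267402-103267551 on the minus strand, each being the 150 bases before the start. They are shown at greater length as the lowest subunit and the highest gene of the set. The stretch of Nfkb2 is chr19:46304674-46304736 on the plus strand and carries 2 matches before the most upstream of 3 annotated starts. The stretch of Nfkbid is chr7:30422215-30422244 on the plus strand, before the middle one of 3 annotated starts. The stretches of Nfkbia (chr12:55492648-55492701) and Tnfaip3 (chr10:19015411-19015447) are on the minus strand and end at the base before the start. For Tnfaip3 this is the most upstream annotated start. Matches before a further start of Tnfaip3 and before the other starts of Nfkb2 are not printed.

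None of the 9 genes differed by 1.5-fold or more, a size reached by 1.61% of all genes. The log base of the deposited values is assumed to be 2, and with natural logs Map3k14 would stand at 0.59, just past 1.5-fold. A second, smaller rule of size was a log2 difference of 0.32. Map3k14 was the 1 gene of the 9 past it, being higher in Hopx-deficient cells, and 11.0% of all genes differed by at least that much in either direction (4.09% higher and 6.93% lower). By sign, 4 of the 9 were higher and 5 lower, against 50.1% and 49.9% of all genes. Their median was -0.01, beside 0.00 for all genes. When the middle probe set stood for each gene in place of the mean, the sign of that median turned, at 0.02, and with the probe set furthest from 0 it was -0.19. These counts and this median are near those of all genes. The values ran from -0.24 for Nfkbid to 0.41 for Map3k14, and 8 of the 9 lay inside the central 95% of all genes, which ran from -0.48 to 0.38.

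**Figure D1:**
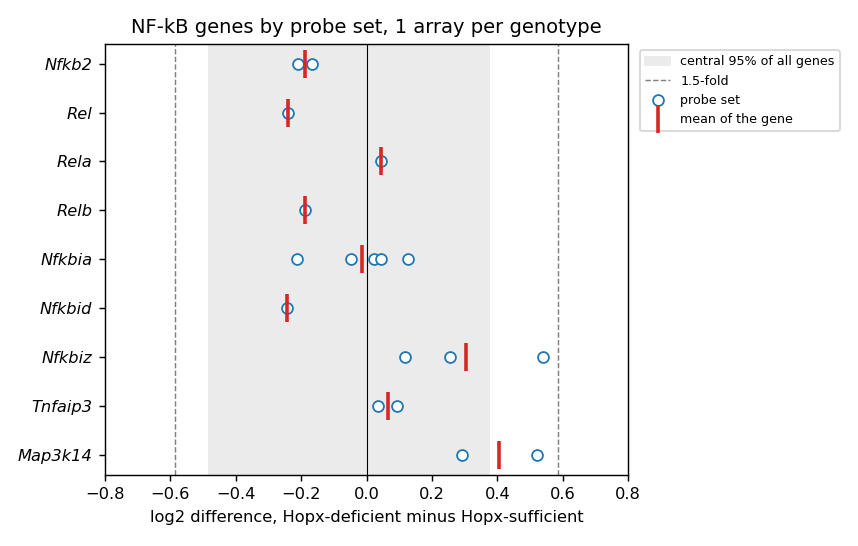
Difference of each probe set (open circles) and mean of each gene (red bars) on the log2 scale, Hopx-deficient minus Hopx-sufficient, for the 9 NF-kB genes, with the central 95% of all genes shaded and 1.5-fold dashed. Map3k14 and Nfkbiz lie to the right with all their probe sets, Nfkb2, Rel, Relb and Nfkbid lie to the left, and the 5 probe sets of Nfkbia stand on both sides of 0.

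Of the 4 subunit genes measured, 3 were slightly lower in Hopx-deficient cells and 1 was near 0. Rel, which encodes c-Rel, had 1 probe set, with a deposited value of -0.12 in Hopx-deficient and 0.12 in Hopx-sufficient cells. Its difference was -0.24 (1.18-fold lower). Of all genes, 11.7% were lower still and 20.5% were at least as far from 0 in either direction. Relb, the partner of p52, also had 1 probe set, at -0.09 in Hopx-deficient and 0.09 in Hopx-sufficient cells, a difference of -0.19 (1.14-fold lower).

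Nfkb2, which encodes the p100 precursor of p52, was likewise 1.14-fold lower, with a difference of -0.19. Its 2 probe sets were close to each other, at -0.21 and -0.17. Their deposited values were -0.10 and -0.08 in Hopx-deficient cells, against 0.10 and 0.08 in Hopx-sufficient cells. The gap between them, 0.04, was small for genes measured by 2 probe sets, whose median gap was 0.16. The second of the probe sets carries the suffix _x_at and the first _a_at, which mark probes that can match more than 1 transcript.

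Rela, which encodes the main activating subunit of the canonical route, had 1 probe set, at 0.03 in Hopx-deficient and -0.03 in Hopx-sufficient cells. Its difference was 0.04 (1.03-fold higher), and 79.9% of all genes were at least as far from 0. The lower values of Nfkb2 and Relb lay within the range of the spike-in probe sets, and that of Rel lay just outside it. That range lay almost wholly below 0, with a median of -0.12, so almost no higher gene could lie inside it. The median of the 4 subunits was -0.19. The 3 lower values ran from -0.24 to -0.19, beside a standard deviation of 0.18 between probe sets of the same gene over the whole array.

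The IkB genes went different ways. Nfkbia encodes IkB-alpha, the inhibitor that holds dimers in the cytoplasm, and it is the gene of the set with the most probe sets. Its 5 probe sets gave -0.21, -0.05, 0.02, 0.04 and 0.13, a mean of -0.01 with a standard deviation of 0.13. In Hopx-deficient cells their deposited values ran from -0.10 to 0.07, and in Hopx-sufficient cells from -0.07 to 0.10. The probe sets thus disagreed in sign, and no direction can be given for the gene. Their span of 0.34 was below the median span of 0.39 for the 463 genes with 5 probe sets.

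Nfkbid and Nfkbiz encode nuclear IkB proteins, which act on NF-kB at the DNA. IkB-NS, the product of Nfkbid, is known to promote Foxp3 expression during regulatory T cell development in mice. Nfkbid had 1 probe set, at -0.12 in Hopx-deficient and 0.12 in Hopx-sufficient cells, and was the lowest of the 9 genes, with a difference of -0.24 (1.18-fold lower). IkB-zeta, the product of Nfkbiz, is needed for a subset of secondary NF-kB targets and is known from helper T cells that make IL-17. Nfkbiz was 1.23-fold higher in Hopx-deficient cells, with a difference of 0.30. Of all genes, 4.86% were higher still and 12.6% were at least as far from 0 in either direction.

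All 3 probe sets of Nfkbiz were higher, but by unequal amounts. Their differences were 0.12, 0.26 and 0.54, with a mean of 0.30 and a standard deviation of 0.22. The deposited values were 0.06, 0.13 and 0.27 in Hopx-deficient cells, against -0.06, -0.13 and -0.27 in Hopx-sufficient cells. Their span of 0.42 exceeded the median span of 0.27 among genes with 3 probe sets, so the size of the difference depends on the probe set chosen.

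Tnfaip3 encodes A20, a ubiquitin-editing enzyme that ends canonical signalling. Its 2 probe sets gave 0.03 and 0.09, a mean of 0.06 (1.05-fold higher). The deposited values were 0.02 and 0.05 in Hopx-deficient cells, against -0.02 and -0.05 in Hopx-sufficient cells. Like Nfkbia, which NF-kB also induces as a brake on itself, it stood near the middle of all genes, of which 70.9% were at least as far from 0.

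Map3k14, which encodes NIK, stood furthest from 0. Its probe sets had deposited values of 0.26 and 0.15 in Hopx-deficient cells, against -0.26 and -0.15 in Hopx-sufficient cells. The differences were 0.52 and 0.29, and the mean was 0.41 (1.32-fold higher). Of all genes, 1.76% were higher and 5.83% were at least as far from 0 in either direction. The gap between its probe sets was 0.23, above the median gap of 0.16 for genes with 2 probe sets, and both were on the same side. Nfkb2 and Relb, the non-canonical subunits, had the opposite sign, each at -0.19. The difference concerns the transcript, whereas NIK is known to be set mainly by destruction of the protein.

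**Figure D2:**
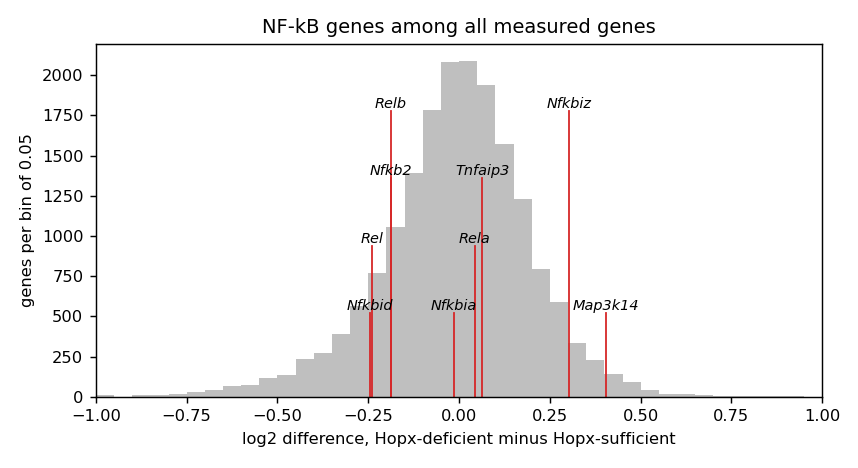
Number of genes per bin of 0.05 on the log2 difference axis, Hopx-deficient minus Hopx-sufficient, over all measured genes between -1 and 1 (grey bars), with red lines at the 9 NF-kB genes; the height of a line only separates the names. Map3k14 and Nfkbiz lie in the upper tail, and the 4 lower genes lie on the shoulder between -0.24 and -0.19.

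The other genes of the pathway were described by lists that hold 97 genes in all, of which 90 were measured. Of these 90, 56 were higher and 34 lower in Hopx-deficient cells, and their median was 0.04, beside 50.1% of all genes higher and a median of 0.00. Cxcl10 was the 1 gene of the 90 at least 1.5-fold apart, a size reached by 1.61% of all genes.

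The list that lay highest was the route by which the antigen receptor reaches IKK. All 5 of its measured genes were higher, against 50.1% of all genes, with a median of 0.31. Cd28 was the 1 gene of them past the log2 difference of 0.32, a size reached by 11.0% of all genes in either direction. The share of 50.1% also stands beside the sign counts of the lists that follow. Cd28, the costimulatory receptor, was at 0.33, with probe sets at 0.21 and 0.46. Prkcq, the kinase that acts on the CARMA1 scaffold, was at 0.3217, just short of the threshold, which is 0.3219 before rounding. Bcl10, an adaptor in the complex with CARMA1 and MALT1, was at 0.31, with 4 probe sets between 0.19 and 0.62.

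Downstream of that complex the values were smaller. Of 9 measured genes of the IKK complex and its activating kinases, 7 were higher, with a median of 0.07. Tab1, a partner of the kinase TAK1, was at -0.17, its relative Tab2 at 0.14, and Ikbke, an IKK-related kinase, at 0.12. Ikbkb and Ikbkg, the catalytic and scaffold subunits of IKK, were at 0.12 and 0.02. The 5 probe sets of Ikbkb ran from -0.0038 to 0.42 and the 6 of Ikbkg from -0.07 to 0.14.

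By the mean of their probe sets the 3 other IkB family genes were all lower, with a median of -0.18. Without the probe sets ending in _x_at, _s_at or _a_at that median was -0.01. Nfkbie, which encodes IkB-epsilon, was at -0.18 and Nfkbib, which encodes IkB-beta, at -0.19, where probe sets at -0.43 and 0.06 disagreed. Bcl3, a nuclear IkB that works with p50 and p52, was at -0.09. Nfkbid therefore had the same sign as Nfkbie and Bcl3, and Nfkbiz the opposite one. No direction can be given for Nfkbib, whose probe sets disagreed.

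The proteins that hold NIK low belong to the list of TRAF, cIAP and ubiquitin ligase adaptors, of which 8 of 10 were higher (median 0.05). Traf2, Birc2 and Birc3, which act on NIK, were at 0.03, 0.05 and 0.26. Birc3 and Traf1 (0.18) are also targets of NF-kB, and Traf6, an adaptor of the IL-1 and Toll-like receptors, was at -0.16 with 5 probe sets between -0.52 and 0.01. Of 13 other brakes on the pathway 8 were higher, with a median of 0.06. Nlrc3, a NOD-like receptor that dampens signalling, was at 0.38 with probe sets at 0.31 and 0.45, the ubiquitin ligase gene Itch at 0.28 and Tax1bp1, an adaptor of A20, at 0.21.

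Receptors that feed NF-kB were close to even, with 10 of 16 higher and a median of 0.02, which was 0.07 with the probe set furthest from 0 for each gene and turned to -0.0059 with the middle probe set. Cd27, a costimulatory TNF receptor, was at 0.29, Il18r1 at 0.27 and Il1r1 at -0.24. Among the receptors used on regulatory T cells, Tnfrsf1b was at 0.08, Tnfrsf18 at 0.04, Tnfrsf9 at 0.00 and Tnfrsf4 at -0.04. Of the 11 ligand genes 7 were higher, with a median of 0.09. Tnfsf9, which encodes 4-1BB ligand, was at -0.48, Tnfsf11, which encodes RANKL, at 0.32, and Tnfsf8, which encodes CD30 ligand, at 0.25.

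Of the known NF-kB targets 13 of 26 were higher and 13 lower, with a median of 0.00 whose sign turned without centring. The log2 difference of 0.32 was passed by 7 of the 26, of which 3 were higher and 4 lower, beside 11.0% of all genes. Cxcl10, a chemokine gene that interferons also induce, was 2.33-fold lower by its 1 probe set (-1.22). Icam1, an adhesion molecule gene, was at -0.42, and Ccl3, a chemokine gene, at 0.50. Of this list, Nfkbie, Traf1 and Birc3 also stand in other pathway lists, Vcam1 stands among the tissue macrophage markers and Il2ra among the regulatory T cell markers. Il2ra, at -0.06 with probe sets at -0.19 and 0.08 that disagreed in sign, encodes the CD25 used in the sort.

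**Figure D3:**
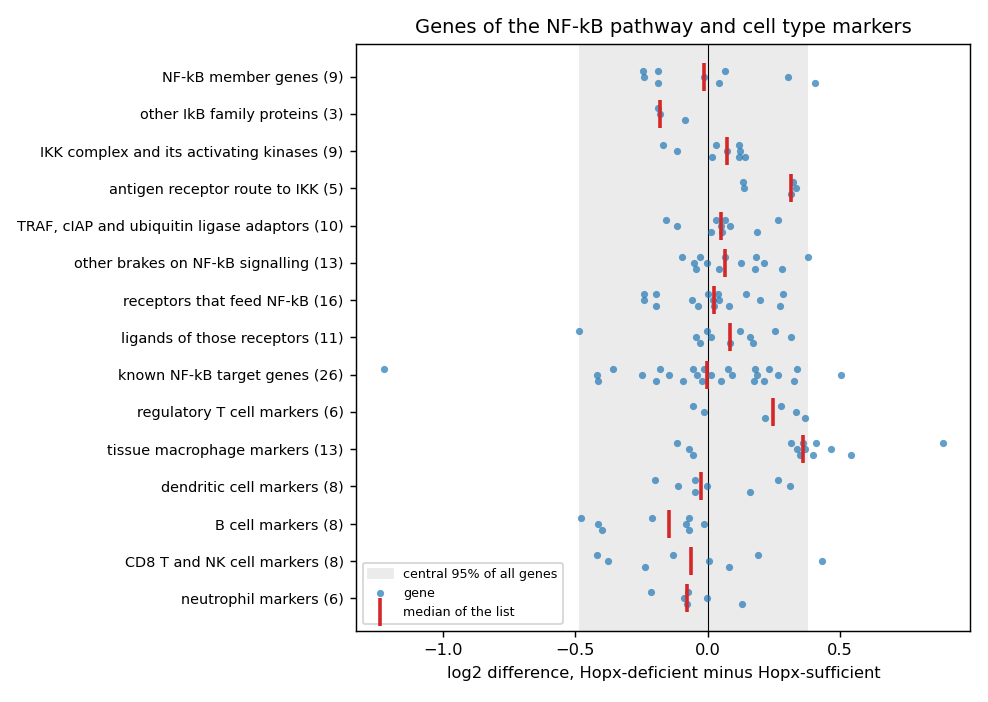
Log2 difference, Hopx-deficient minus Hopx-sufficient, of each measured gene (blue points, spread vertically for legibility) in the NF-kB set, the 8 pathway lists and the 6 cell type marker lists, with the list median in red, the number of genes in brackets and the central 95% of all genes shaded. The antigen receptor route (median 0.31) and the tissue macrophage markers (median 0.36) lie highest, and the B cell markers (median -0.15) all lie below 0.

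Markers of other cells also differed between the arrays, and several NF-kB genes are known to be active in those cells. All 8 B cell markers were lower in Hopx-deficient cells, between -0.48 (Fcmr) and -0.01 (median -0.15), with Cd79a at -0.41 and Ebf1 at -0.40. This is the direction of Rel, Relb, Nfkb2 and Nfkbid. Of 13 tissue macrophage markers 10 were higher (median 0.36), from -0.11 to 0.89 (Mrc1), with Cd5l at 0.54 and Cd163 at 0.47. This is the direction of Map3k14 and Nfkbiz. The regulatory T cell markers, of which 4 of 6 were higher (median 0.25), had that direction too. The part of any of these cells in the values of the NF-kB genes was not tested. The value steps placed none of the 22 macrophage and 1 of the 14 B cell probe sets (of Blk) in the class of the lowest signal on at least 1 array, which does not show that the others were detected.

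The lists of dendritic cells, CD8 T and NK cells and neutrophils had medians closer to 0, at -0.03 over the 8 dendritic cell genes, -0.06 over the 8 genes of CD8 T and NK cells and -0.08 over the 6 neutrophil genes. Lower in Hopx-deficient cells were 5 of the 8, 4 of the 8 and 5 of the 6, in that order. A majority of lower markers was thus not particular to the B cell list. The genes furthest from 0 were Cd209a (0.31), Xcr1 (0.27) and Siglech (-0.20) among the dendritic cell markers. Among the CD8 T and NK cell markers they were Nkg7 (0.43), Klrd1 (-0.42) and Klrk1 (-0.37), and among the neutrophil markers Mpo (-0.21), S100a8 (0.13) and Camp (-0.09). Of 6 regulatory T cell markers 4 were higher (median 0.25), with Ikzf2 at 0.37, Ctla4 at 0.33 and Foxp3, whose product was used in the sort, at 0.28. In sorted bulk RNA, fewer cells of a type and less RNA per cell cannot be told apart.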

How the data were processed

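Total RNA was the starting material and biotin the label for single-colour 3' expression arrays of 45101 probe sets, 1 per genotype. The sample titles gave the genotypes. The authors deposited values on a log2-type scale. A test of the table showed that each probe set is centred on the mean of the 2 arrays: the largest row sum is 1e-06. Signal levels are therefore not kept. The log base, summarisation and normalization are not given in the sources used here. Base 2 was assumed. The number of arrays limits the precision.

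Gene symbols came from the 2016 annotation of the platform and were brought up to date through a mouse gene table (GRCm38.p6), which held the gene ID of 34741 of the 34945 probe sets with 1 symbol. Probe sets with several symbols (932), with none (9160) or for controls (64) stayed out of gene values. The median difference of 0.0075 was subtracted. Thresholds of 1.5-fold and of a log2 difference of 0.32 are rules of size. Named genes are the listed set, the 3 furthest from 0 in each list and any list gene past 1.5-fold; Hopx, Foxp3 and Il2ra were checks; Ikbkb, Ikbkg, Traf2, Birc2, Tnfrsf1b, Tnfrsf18, Tnfrsf9 and Tnfrsf4 were added for their roles. The genes, lists and tests were chosen with earlier results of these data known. The gene summary was tested on simulated data. Python 3.11.15, numpy 2.4.6, pandas 2.3.3 and matplotlib 3.10.9 were used.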

Additional observations from a re-analysis of the deposited data

How the results depend on the processing

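No paired analysis was possible because there is a single array on each side, which also means that none can be left out. Of 178 alternative values for 27 results, 161 stayed within the spread between probe sets of a gene (for list medians, that spread divided by the square root of the number of genes; for counts, within 1.5 times) and 17 moved. The sign changed in 5, all of them values close to 0: with the middle probe set, Nfkbia and the median of the 9 genes were at 0.02 and the receptor median at -0.0059, and the target median (-0.00068) was at 0.0068 without centring and at 0.01 without probe sets ending in _x_at, _s_at or _a_at. When a gene was given the value of its probe set furthest from 0, Nfkbia was at -0.21, Nfkbiz at 0.54, the median of the 9 genes at -0.19, that of the receptors at 0.069, and 1 gene of the antigen receptor route passed 1.5-fold. That gene is Bcl10 (0.62), which also passed when probe sets ending in _x_at, _s_at or _a_at were left out. In that setting Nfkb2 and Rela had no probe set left, and the median of the other IkB genes was -0.014. With the middle probe set of each gene, the median of the antigen receptor route was 0.22. Natural logs, which enlarge each difference 1.44 times, placed Map3k14 at 0.59, making it the 1 of the 9 genes past 1.5-fold, and gave a median of 0.45 for the antigen receptor route, 1 ligand gene and 4 target genes past 1.5-fold. The log2 threshold of 0.32 was passed by 1 of the 9 genes, 1 gene of the antigen receptor route, 1 other brake, 1 ligand and 7 of 26 targets, beside 11.0% of all genes. No centring moved no result past these limits. Neither did leaving out 4454 probe sets (none of the 18). The value steps of these 4454 place them below 4 on the log scale on at least 1 array. Many of the 178 values had little or no room to move, so the count of 161 does not measure robustness. For the 4 of the 9 genes with 1 probe set, the mean, middle and furthest probe set are the same. No centring shifted each gene by only 0.0075, and the limit for a gene was a spread of 0.18.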
